A study of Hydra vulgaris with 15 samples.

Results

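Among the transcripts of the freshwater polyp Hydra vulgaris that were far more abundant in the head than below it, in the body column, 94 of 79784 assembled transcripts kept their head level after RNA interference (RNAi) against Zic4, and their levels are described here in heads and body columns of both treatments. They were chosen on normalized counts (CPM, counts relative to the library total). A transcript had to reach at least 5 CPM in each of 4 control heads. Its mean over the control heads had to be at least 16 times its mean over 3 control body columns, and its mean over 4 Zic4 RNAi heads had to lie between 0.75 and 1.3 of the control head mean. Of 12172 transcripts with at least 5 CPM in every control head, 188 passed the 16-fold limit. The 94 kept transcripts made up 50% of those, another 90 had RNAi head means under 0.75 of the control mean, and 4 lay above 1.3. Of all 12172 transcripts 84.1% lay in the window from 0.75 to 1.3, so a kept level was less frequent among the head-enriched ones. The head levels of both treatments and the control body columns were thus used in the choice and are given as a description, whereas the Zic4 RNAi body columns were not used.

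RNA was sequenced from the head and the body column of animals of strain Basel1 in 15 libraries, in order to see what the transcription factor Zic4 does in each tissue. There were 4 Zic4 RNAi heads, 4 Zic4 RNAi body columns, 4 control heads and 3 control body columns, the last with the replicate numbers 2, 3 and 4. Control animals carried the genotype label wild-type. Per the labels, all animals were starved for 4 days, the intact polyps were electroporated 4 times with a day between sessions, and RNA was taken 1 day after the last session from 20 polyps per condition. What the control animals were electroporated with is not given in the sources used here. Each library thus stands for pooled polyps, and since nothing says that the libraries of a group came from separate cultures, p-values measure the spread between these libraries, which may be technical. The source label calls every sample an entire animal, while the tissue label and the title give head or body column. The contig IDs could not be paired with gene names, so the level of Zic4, the markers of head, tentacle or body column cells and the function of the members were not analysed here. Library totals lay between 16020872 and 22554240 counts. CPM values are not corrected for transcript length, so a difference between members is one of counts and not of molecules.

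The Hydra head consists of the mouth cone and a ring of tentacles, whose cells come from the body column and take on head or tentacle identity as tissue is displaced upwards. The mouth cone holds an organizing centre that uses Wnt signalling, and tentacles carry epithelial battery cells loaded with stinging cells. Transcripts that are abundant in the head and rare below it therefore come from a mixture of tissues, and in bulk RNA fewer cells of a type cannot be told apart from less RNA per cell.

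The 94 transcripts took up between 0.885% and 1.42% of the counts of a head library and between 0.0199% and 0.0666% of those of a body column library. Their summed level was 8852, 11369, 12536 and 13485 CPM in Zic4 RNAi heads 1 to 4, against 14246, 12995, 14227 and 12063 CPM in control heads 1 to 4. The means were 11560.5 ± 2002 CPM in RNAi heads and 13383 ± 1057 CPM in control heads (SD, n = 4 each). RNAi head 1 lay below every other head, RNAi heads 3 and 4 lay within the range of the control heads, and the 2 groups overlapped. In body columns the sum was 387, 199, 419 and 666 CPM in RNAi libraries 1 to 4, against 239.8, 464 and 252 CPM in control libraries 2 to 4. The means were 418 ± 192 CPM (SD, n = 4) in RNAi body columns and 319 ± 126 CPM (SD, n = 3) in control body columns. Their ratio was 1.31, and the means differed by less than the SD of either group. The ratio of sums was 2.70 for members of at least 32-fold, and 0.921 with RNAi body columns 1 and 2 alone, an alternative added after the values were seen. The 32-fold limit favours low control body columns, which by itself raises this ratio.

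**Figure D1:**
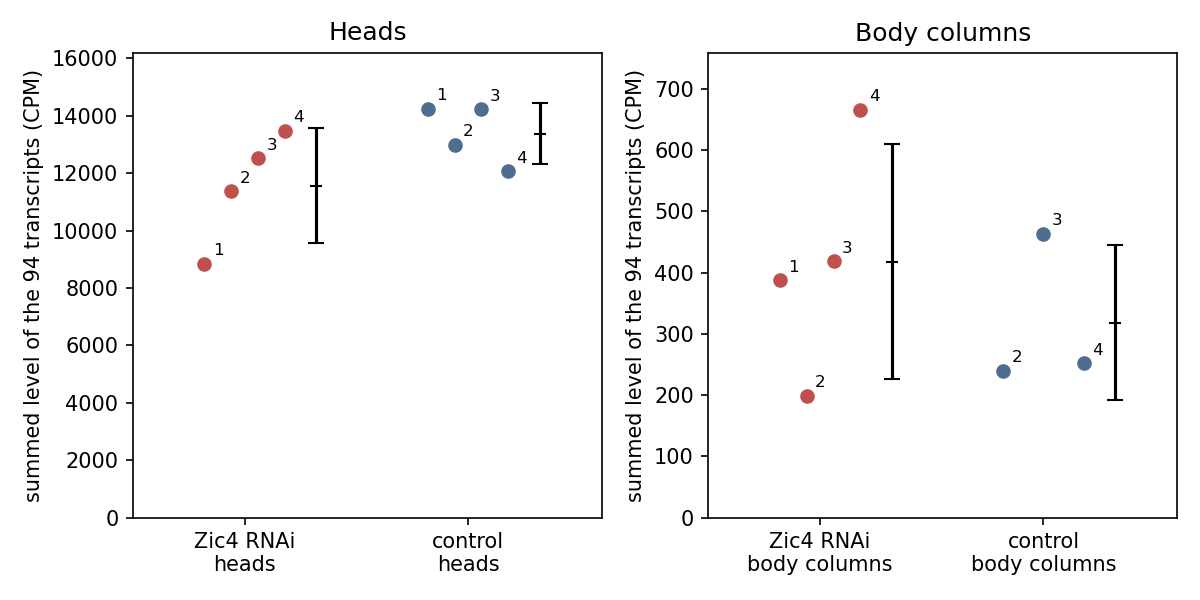
Summed level of the 94 transcripts in CPM in each library, heads on the left and body columns on the right, with the replicate number beside each point and the mean and SD as a bar. Head sums lie between 8852 and 14246 CPM and body column sums between 199 and 666 CPM, and the RNAi and control points overlap in both tissues.

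A few abundant transcripts made up much of these sums. The 3 with the most counts, GGKF01026231.1, GGKF01026235.1 and GGKF01019267.1, held between 25.7% and 27.8% of the summed level in RNAi heads and between 26.1% and 26.8% in control heads. In body columns they held between 23.9% and 37.5% of the sum in RNAi animals and between 38.6% and 49.8% in control animals, so control body column sums rested on them more than head sums did. Member means ranged from 4.86 to 1232 CPM in RNAi heads, with a median of 34.1 CPM, and from 5.98 to 1406 CPM in control heads, with a median of 37.6 CPM. In control heads 29 members reached 100 CPM, 54 lay between 10 and 100 CPM, and 11 lay under 10 CPM. Body column means ranged from 0 to 64.6 CPM in RNAi animals, with a median of 1.39 CPM, and from 0 to 79.0 CPM in control animals, with a median of 0.554 CPM. The fold of the control head mean over the control body column mean ran from 16.6 to 1482 among the members with counts there. Control body columns at or under 3 counts in every library were set to that floor for this range. Without the floor GGKF01027471.1 reached 12308, which rested on at most 3 counts per control body column, and with it at least 1440. The median fold without the floor over all members was 74.6. By that same fold 25 members lay between 16 and 32, 25 between 32 and 100, and 44 at 100 or more or at 0 in every control body column. Of these 44, 13 members were at 0 in all 3 control body columns.

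The accession numbers of the members ran together in places. With gaps of up to 10 numbers allowed, 46 of the 94 fell into 15 runs of neighbouring IDs and 48 stood alone. The longest run, from GGKF01019266.1 to GGKF01019291.1, held 9 members, and these were all of its IDs that reached 5 CPM in every control head. The next, from GGKF01063178.1 to GGKF01063184.1, held 6 members. The run from GGKF01026231.1 to GGKF01026236.1 held 3, which averaged between 719 and 1406 CPM in control heads. In 14 of the 15 runs no head-enriched transcript lay under 0.75 after RNAi, and GGKF01038572.1 to GGKF01038579.1 was the exception. Neighbouring numbers do not show that contigs belong to the same gene, but near-identical contigs would share reads, so members of a run may not be separate observations.

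The levels after RNAi filled the lower side of the permitted window. The ratio of the RNAi head mean to the control head mean had a median of 0.851 over the members, with quartiles of 0.811 and 0.897 and extremes of 0.752 and 1.196. The ratio lay under 1 for 82 members and reached 1 for 12, of which 2 exceeded 1.1. Over the 12172 transcripts with at least 5 CPM in control heads the median was 0.955, so that CPM in RNAi heads were slightly lower for transcripts in general. After scaling by trimmed mean of M-values (TMM), which corrects for library composition, the median over the members was 0.919 and 75 members lay under 1. The same scaling shifted the median log2 fold change of all 31142 tested transcripts between RNAi and control heads to -0.02, against -0.14 with library totals alone. No member differed between RNAi and control heads by edgeR's quasi-likelihood test with Benjamini-Hochberg (BH) adjustment at 0.05, where 4.76% of all tested transcripts did, 2.65% being higher and 2.11% lower in RNAi heads. This count was fixed in part by the rule. It was also 0 with DESeq2, and 2 members lay under an unadjusted p of 0.05 in edgeR, where 16.7% of all tested transcripts did. All 4 RNAi heads lay below all 4 control heads for 12 members, an order that 10% of all tested transcripts had, and no member showed the reverse order, which 2.2% had.

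One RNAi head library set much of this shift. The median ratio to the control head mean was 0.681, 0.831, 0.934 and 0.982 in RNAi heads 1 to 4, against 1.04, 0.969, 1.06 and 0.927 in control heads 1 to 4. RNAi head 1 was the lowest of the 4 RNAi heads for 71 of the 94 members (75.5%), and it was the lowest for 24.4% of the 12172 transcripts. Over those 12172 transcripts the median ratios were 0.956, 0.893, 0.968 and 0.990 in RNAi heads 1 to 4, so head 1 did not stand apart in them. With TMM scaling the members' medians were 0.729, 0.960, 0.999 and 1.02 in RNAi heads 1 to 4. Over the 12172 transcripts the TMM medians were 1.027, 1.034, 1.037 and 1.027, so the members' median was the lower one in each RNAi head. Without RNAi head 1 the median of the kept ratio was 0.908, with 76 members under 1. What distinguished that library was not tested.

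The 90 head-enriched transcripts under 0.75 did not show this order of libraries. Their median ratio in CPM was 0.440, 0.416, 0.392 and 0.390 in RNAi heads 1 to 4, close to each other and highest in head 1, where the 94 kept transcripts were lowest. With TMM scaling their medians were 0.473, 0.480, 0.421 and 0.404 in RNAi heads 1 to 4, highest in head 2. Control head 4 also stood apart in opposite ways. It was the lowest control head for 51 of the 94 members (54.3%), against 14.2% of the 12172 transcripts, and its median ratio was 0.927 for the members and 1.18 for the 90 transcripts under 0.75.

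**Figure D2:**
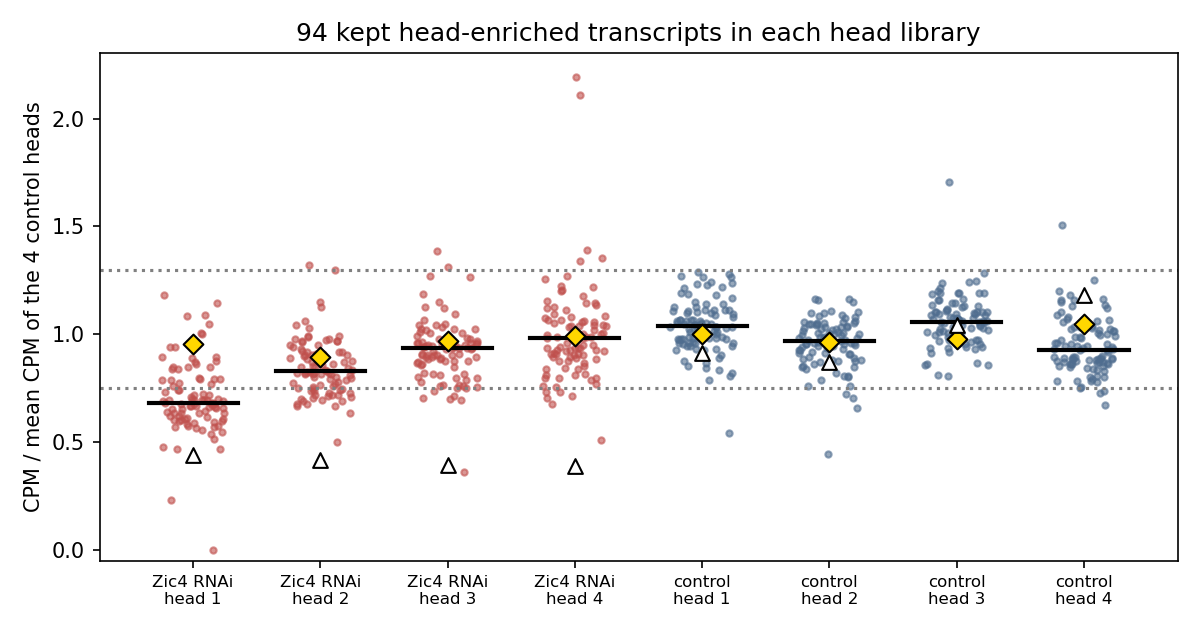
Ratio of each head library to the mean of the 4 control heads for the 94 members (points; bars are their medians), with Zic4 RNAi heads on the left and control heads on the right and dotted lines at 0.75 and 1.3. Diamonds are medians over the 12172 transcripts of at least 5 CPM in control heads, and triangles are medians of the 90 head-enriched transcripts under 0.75; the members' median lies at 0.681 in RNAi head 1 and at 0.982 in RNAi head 4.

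The mean therefore covered a wide spread between libraries. Only 29 members lay within 0.75 to 1.3 of the control mean in RNAi head 1, and 70, 86 and 83 did in RNAi heads 2, 3 and 4. All 4 RNAi heads lay in the window for 14 members (14.9%), against 54.5% of the 12172 transcripts. These 14 had control head means from 7.28 to 229.5 CPM, and 11 of them lay under 30 CPM. The median coefficient of variation of the members was 17.2% in RNAi heads and 11.9% in control heads, and over the 12172 transcripts it was 12.1% in RNAi heads and 11.2% in control heads. In RNAi head 1 the median was 0.662 for the 29 members of at least 100 CPM, 0.687 for the 54 from 10 to 100 CPM and 0.847 for the 11 below 10 CPM.

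GGKF01026231.1, the member with the most counts, followed this order. It had 922, 1267, 1338 and 1403 CPM in RNAi heads 1 to 4, against 1471, 1359, 1549 and 1245 CPM in control heads 1 to 4. RNAi head 1 was the lowest and RNAi heads 2 to 4 overlapped the controls. GGKF01026235.1 had 829, 1055, 1113 and 1075 CPM in RNAi heads, against 1268, 1168, 1312 and 1018 CPM in control heads. Again only RNAi head 1 lay clearly below the control range.

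The members over 20 CPM with the smallest and the largest spread between RNAi heads show how far libraries could differ. GGKF01057021.1 varied least, with 38.0, 37.2, 36.4 and 38.6 CPM in RNAi heads 1 to 4, against 46.2, 39.6, 53.2 and 54.3 CPM in control heads. All 4 RNAi heads lay below all 4 control heads, although the difference did not pass the edgeR test (log2 fold change -0.25, SE 0.16, BH adjusted p = 0.524). GGKF01063178.1 varied most, with 8.18, 30.1, 44.5 and 77.0 CPM in RNAi heads, against 43.3, 34.4, 37.2 and 25.5 CPM in control heads. Its RNAi heads spanned the control range on both sides.

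The limits of the rule fell among transcripts of similar level. At the 16-fold limit, GGKF01010357.1 (16.6-fold) and GGKF01026236.1 (16.6-fold) lay just inside, and GGKF01078291.1 (15.6-fold) and GGKF01043686.1 (15.3-fold) just outside. At 0.75, GGKF01038271.1 (0.752) and GGKF01009600.1 (0.754) lay inside, and GGKF01059819.1 (0.734) and GGKF01015007.1 (0.731) outside. At 1.3 there was a gap, with GGKF01032087.1 (1.20) and GGKF01063178.1 (1.14) as the highest members and GGKF01062238.1 (1.42) and GGKF01055877.1 (1.67) as the next transcripts outside.

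In animals treated with Zic4 RNAi the 94 transcripts were still mostly head transcripts. By edgeR's quasi-likelihood test with BH adjustment, 92 of the 94 were higher in RNAi heads than in RNAi body columns and none were lower, where 13.1% of all tested transcripts were higher and 12.5% lower. For 92 members every RNAi head lay above every RNAi body column, an order that 16.5% of all tested transcripts had. The fold of the RNAi head mean over the RNAi body column mean had a median of 40.9, and the corresponding control fold of 74.6 was bounded below by the rule. It reached 16 for 84 members (89.4%), against 2.44% of all tested transcripts and 54 of the 90 head-enriched transcripts under 0.75 (60%). The RNAi heads of the members, but not of those 90, had been held near the control level by the choice.

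The 2 members that were not called between RNAi heads and RNAi body columns were GGKF01046104.1 and GGKF01071498.1. GGKF01046104.1 had 0, 9.36, 17.8 and 29.7 CPM in RNAi heads 1 to 4, against 28.2, 23.2, 32.6 and 27.3 CPM in RNAi body columns 1 to 4. It was listed at 0 in RNAi head 1, and every RNAi body column lay above RNAi heads 1 to 3, but the edgeR difference of head over body column did not pass (log2 fold change -1.05, SE 0.79, BH adjusted p = 0.410). GGKF01071498.1 had 8.39, 20.1, 24.8 and 20.5 CPM in RNAi heads, against 11.2, 7.65, 11.8 and 0 CPM in RNAi body columns (log2 fold change 1.18, SE 0.91, BH adjusted p = 0.418 in edgeR).

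Besides these, 8 further members had RNAi head means under 16 times the RNAi body column mean. GGKF01029968.1 was next, with a fold of 4.16, and the others were GGKF01067800.1 (7.95), GGKF01050386.1 (11.2), GGKF01074891.1 (12.2), GGKF01074889.1 (12.2), GGKF01025044.1 (13.2), GGKF01024836.1 (14) and GGKF01039701.1 (14.8). Of the 10 members under 16 after RNAi, 8 had a fold between 16 and 32 in controls. They were chosen for mention after their values were seen. Taken library by library, 79, 86, 80 and 68 members had an RNAi head mean of at least 16 times RNAi body columns 1 to 4, and 91, 82 and 90 had a control head mean of at least 16 times control body columns 2 to 4.

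Zic4 RNAi body columns held more of these transcripts than control body columns for most members, but few differences passed the test. The RNAi body column mean was above the control mean for 68 members, below it for 25 and equal for 1, and 45.5% of all tested transcripts were above. The ratio had a median of 1.51 over the 81 members with control body column counts, and of 1.5 over all 94 when groups at or under 3 counts in every library were set to that floor, against 0.96 over all tested transcripts either way. A low control body column mean was part of the rule, which by itself favours ratios above 1. With RNAi body columns 3 and 4 left out, an alternative added after the values were seen, the median was 0.946. By edgeR's quasi-likelihood test with BH adjustment, 4 members were higher in RNAi body columns (1.51% of all tested transcripts) and none lower (0.543%). Unadjusted edgeR p-values lay under 0.05 for 40 members (16.8% of all tested transcripts), 39 of them higher in RNAi (9.85%). DESeq2 with BH adjustment called 28 members, which included all 4 edgeR calls, where it called 8.39% of all transcripts it tested. Of those 28, 27 were higher in RNAi (5.33%) and 1 lower (3.06%). RNAi body columns 3 and 4 both lay above the other 5 body columns for 24 of the 28 and for 30 of the 40. That order, defined after the values were seen, held for 7.12% of all tested transcripts. All 4 RNAi libraries lay above all 3 control libraries for 10 members, where 5.87% of all tested transcripts had that order, and the reverse order, at 9.12% of all tested transcripts, was seen for none.

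**Figure D3:**
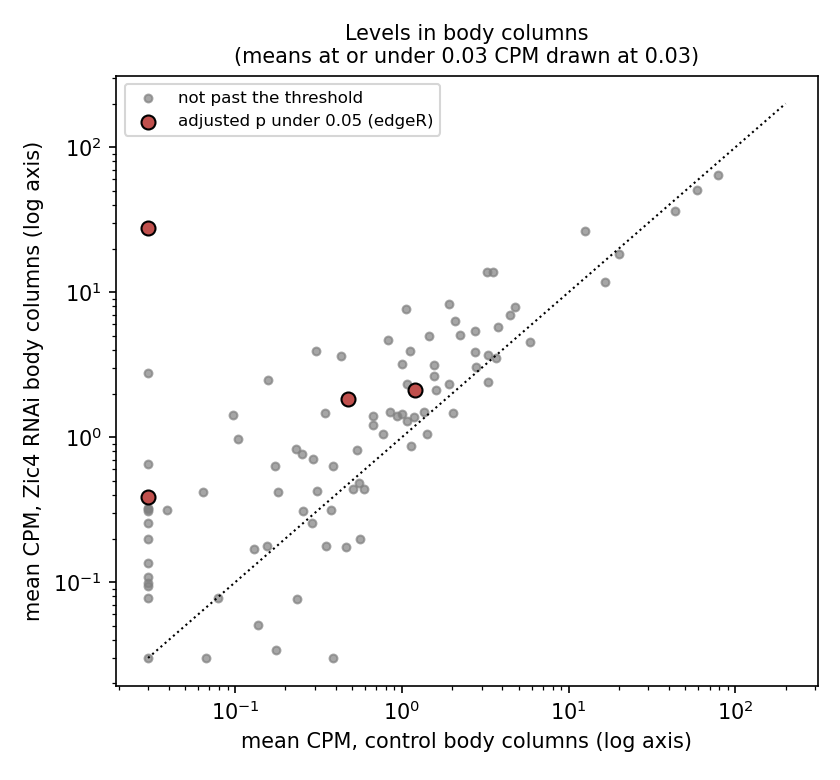
Mean CPM of each of the 94 members in control body columns (horizontal) and Zic4 RNAi body columns (vertical), both on log axes, with means at or under 0.03 CPM drawn at 0.03 and a dotted line of equality. Large red points are the 4 members higher in RNAi by edgeR at an adjusted p under 0.05; 68 members lie above the line and the 3 members with the most body column counts lie below it.

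The member with the largest difference was GGKF01046104.1. Its 4 RNAi body columns, at 28.2, 23.2, 32.6 and 27.3 CPM, stood against 0 CPM in each of the 3 control body columns. They lay within a narrow range and above all but one of the head libraries, and the level was at least 157-fold higher than the floor of 3 counts per control library (edgeR BH adjusted p = 0.0217). In control heads it had 17.8, 6.28, 18.1 and 14.1 CPM. The adjusted p was 0.0863 without control body column 3, and where reads are divided among similar contigs a value of exactly 0 may stand for reads given to another contig. Among the transcripts next above the 1.3 limit, GGKF01055877.1 (1.67) had 25.2, 23.1, 30.3 and 7.38 CPM in RNAi body columns and 0 CPM in all 3 control body columns, while GGKF01062238.1 (1.42) was at 0 in all 4 RNAi body columns.

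The other called members had low body column levels in both treatments. GGKF01053660.1 had 0.488, 0.654, 0.152 and 0.25 CPM in RNAi body columns 1 to 4, against 0, 0.0583 and 0 CPM in control body columns 2 to 4. Every RNAi library lay above every control library, and the RNAi level was at least 2.17-fold higher than the floor of 3 counts (edgeR BH adjusted p = 0.0187). GGKF01019275.1 had 2.32, 1.59, 2.70 and 1.85 CPM in RNAi body columns, against 1.19, 1.34 and 1.05 CPM in control body columns. These groups did not overlap either (log2 fold change 0.90, SE 0.21, edgeR BH adjusted p = 0.0444), but the call was kept in only 4 of the 15 fits that left out 1 library.

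GGKF01044091.1 was the remaining call and was chosen for mention once its values had been seen. It had 1.59, 0.950, 2.07 and 2.68 CPM in RNAi body columns, against 0.577, 0.650 and 0.203 CPM in control body columns. It was higher in every RNAi library (log2 fold change 1.96, SE 0.42, edgeR BH adjusted p = 0.0282) and was called in 9 of the 15 fits without 1 library. In RNAi heads it had 33.7, 44.2, 55.4 and 64.2 CPM, against 63.2, 54.8, 57.6 and 53.3 CPM in control heads. The body column mean was thus 3.69% of the head mean in RNAi animals and 0.832% of it in control animals.

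The same 4 members were called by the interaction term of edgeR (BH adjusted p under 0.05), with a smaller log2 fold change in heads than in body columns. Such a difference was called for 1.57% of all tested transcripts, for 1.07% in that direction and for 0.501% in the opposite one, which no member had. Of the 4 groups in this contrast 3 had been used by the rule, which held the head effect near 0 and favoured low control body columns, so these calls are no evidence apart from the body column calls. The difference of log2 fold changes was -1.18 (SE 0.25, adjusted p = 0.0295) for GGKF01019275.1 and -2.07 (SE 0.47, adjusted p = 0.0432) for GGKF01044091.1 in edgeR. For GGKF01046104.1 and GGKF01053660.1 the adjusted p was 0.0367 and 0.0181 in edgeR. Their fitted differences are given only among the flagged results and are not bounds, because their control body columns held at most 3 counts each. Of the 15 fits that left out 1 library, the difference was called in 13 for GGKF01053660.1, in 8 for GGKF01019275.1 and in 3 each for GGKF01044091.1 and GGKF01046104.1.

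Several of the most head-restricted members were high in only some RNAi body columns, and none of those named next passed the edgeR test. GGKF01027471.1 had the highest control head to body column fold before the floor of 3 counts was applied. It had 0.443, 0.151, 3.30 and 7.18 CPM in RNAi body columns 1 to 4, against 0.0624, 0 and 0 CPM in control body columns 2 to 4. RNAi body columns 3 and 4 were far above 1 and 2, which lay above the controls by a few counts. Its RNAi mean was at least 15.6-fold higher than the floor of 3 counts, with a BH adjusted p of 0.0689 in edgeR and 1.4e-04 in DESeq2. Its heads had 174, 248, 229 and 267 CPM in RNAi animals, against 251, 249, 296 and 228 CPM in control animals.

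GGKF01048157.1 had 0.177, 0, 2.44 and 3.06 CPM in RNAi body columns 1 to 4, against 0.0624, 0.0583 and 0.171 CPM in control body columns 2 to 4. GGKF01002275.1, the most abundant member at 0 in all control body columns, had 0.0443, 0, 0.558 and 0.687 CPM in RNAi body columns. GGKF01019267.1 had 3.56, 2.54, 22.1 and 27.2 CPM in RNAi body columns, against 2.39, 3.37 and 3.91 CPM in control body columns. In all 3 members RNAi body columns 3 and 4 were high and RNAi body columns 1 and 2 lay in or near the control range. The edgeR test gave BH adjusted p-values of 0.165 for GGKF01048157.1, 0.183 for GGKF01002275.1 and 0.121 for GGKF01019267.1 (log2 fold change 2.12, SE 0.67).

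RNAi body columns 3 and 4 both lay above the other 5 body column libraries for 41 of the 94 members (43.6%). The same order held for 7.12% of all tested transcripts, for 10.01% of the 12172 transcripts and for 12 of the 90 head-enriched transcripts under 0.75 (13.3%). The pattern was defined after the values were seen and has no test. Over these 41 members the summed level was 74.3, 61.8, 204.6 and 258 CPM in RNAi body columns 1 to 4, against 57.9, 60.1 and 55.0 CPM in control body columns 2 to 4. RNAi body columns 1 and 2 were near the controls in this sum. That 3 and 4 lay above all of them was fixed by the definition of the order, so only the size of the gap is described. Over the other 53 members the sum was 313, 137.5, 215 and 408 CPM in RNAi body columns and 182, 404 and 197 CPM in control body columns. Libraries of both treatments mixed there, but each of these members lacked the order by definition. The 41 had a median control head mean of 107.9 CPM and the other 53 one of 21.8 CPM. All 4 members of the run from GGKF01059039.1 to GGKF01059043.1 and 6 of the 9 in the run from GGKF01019266.1 to GGKF01019291.1 were among the 41, but none of the 3 in the run from GGKF01026231.1 to GGKF01026236.1.

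The excess in these 2 libraries was of similar size relative to the head for most of the 41 members. Expressed as a percent of the RNAi head mean, the excess over the mean of the other 5 body columns had a median of 1.99% in RNAi body column 3, with quartiles of 1.51% and 2.68%. In RNAi body column 4 the median was 2.90%, with quartiles of 2.12% and 3.68%. Across the 41 members the logarithm of the excess and that of the RNAi head level had a Pearson's r of 0.898 and a Spearman's rho of 0.892 in RNAi body column 3, and 0.932 and 0.950 in RNAi body column 4. These values describe 41 transcripts of shared libraries, which are not independent and whose excess was positive by definition.

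The difference between body column libraries was largest for the members with the highest control folds, taken without the floor of 3 counts. Some of these folds rested on 3 counts or fewer per control library. With the floor GGKF01045929.1, named after its values were seen, stood at 33.6. GGKF01046104.1, with a higher mean in RNAi body columns than in RNAi heads, was also in this group. For the 44 members at 100-fold or more, or at 0 in control body columns, the median level as a percent of the head mean of the same treatment was 0.520%, 0.156%, 2.37% and 3.21% in RNAi body columns 1 to 4, against 0.0303%, 0.239% and 0% in control body columns 2 to 4. For the 50 members under 100-fold it was 3.78%, 2.0%, 3.90% and 5.86% in RNAi body columns, against 2.25%, 3.21% and 3.69% in control body columns. The first group thus set RNAi body columns 3 and 4 apart from all others, and the second group showed no such gap. The order defined above held for 31 of the 44 members, for 8 of the 25 between 32 and 100 and for 2 of the 25 between 16 and 32. These tiers were set by the control body column mean, so low control body columns in the first group were fixed by the choice. That makes the order easier to meet there. The position of RNAi body columns 3 and 4 relative to RNAi body columns 1 and 2 was not fixed in this way.

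Some head-enriched transcripts outside the 94 were also highest in these libraries. For the 47 head-enriched transcripts under 0.75 that were at 100-fold or more, or at 0 in control body columns, the median percent of the head mean was 0.376%, 0.0392%, 1.496% and 2.06% in RNAi body columns 1 to 4, against 0% in each of the 3 control body columns. RNAi body columns 3 and 4 were again the highest by the median. These 47 were chosen for control body columns near 0, their RNAi head means were low by choice, which raises the RNAi percents, and over the full 90 the order of libraries held for 13.3%, as given above. For transcripts of at least 5 CPM in control heads in general the medians were 91.5%, 90.9%, 94.5% and 95.9% in RNAi body columns and 89.5%, 86.9% and 94.7% in control body columns. Whether the share of head tissue in these libraries plays a part in the members' levels was not tested.

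**Figure D4:**
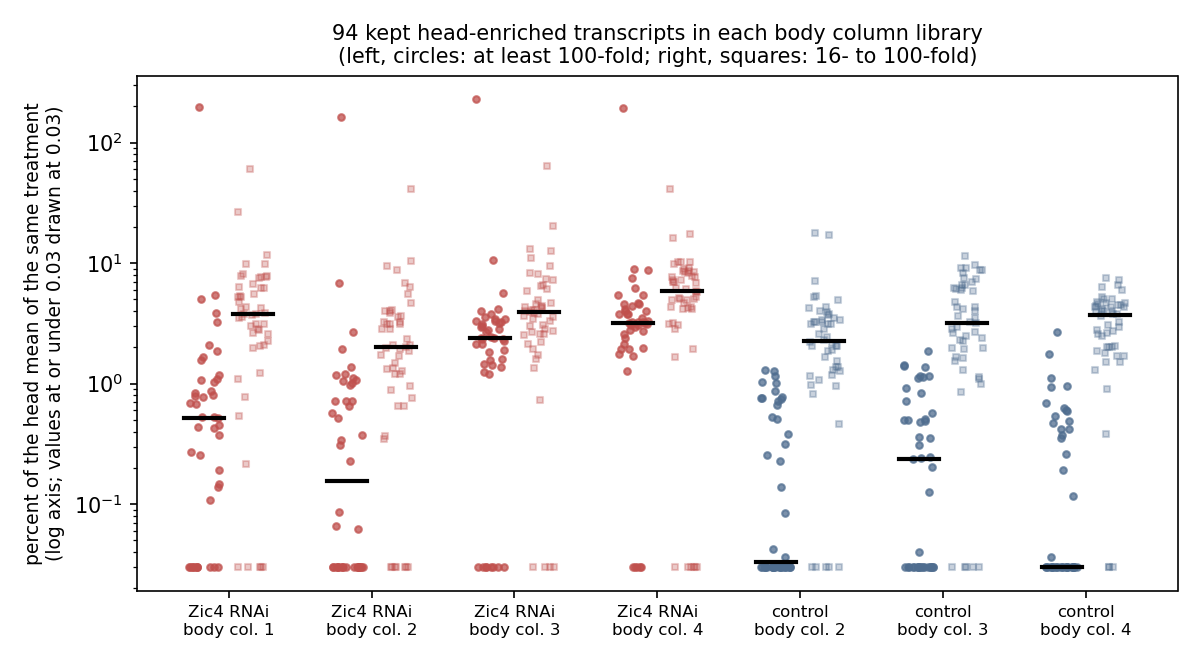
Level of each of the 94 members in each body column library as a percent of the head mean of the same treatment, on a log axis with values at or under 0.03% drawn at 0.03%. Circles on the left of each library are the 44 members at 100-fold or more or at 0 in control body columns, squares on the right are the 50 members under 100-fold, and bars are medians, which for the circles are 2.37% and 3.21% in RNAi body columns 3 and 4 and at most 0.520% in the other 5 libraries.

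Which body column library was the highest of the 7 differed between members. RNAi body column 4 was the highest for 47 members, against 17.1% of all tested transcripts, and RNAi body column 3 for 19, against 12.7%. Control body column 3 was the highest for 13, a share near the 15.4% of all tested transcripts. GGKF01026231.1 was one of these 13, with 78.8, 25.6, 44.5 and 109.5 CPM in RNAi body columns 1 to 4, against 51.8, 129 and 56.7 CPM in control body columns 2 to 4. Its RNAi and control libraries overlapped (log2 fold change -0.26, SE 0.40, edgeR BH adjusted p = 0.841).

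Of the 25 members with a lower mean in RNAi body columns, none passed the edgeR test with BH adjustment, 1 lay under an unadjusted p of 0.05, and DESeq2 called 1 member lower. Those with the lowest ratios had under 1 CPM in both groups. Among them were GGKF01072092.1 at 0.0342 CPM in RNAi and 0.175 CPM in control body columns, and GGKF01010357.1 at 0.176 CPM in RNAi and 0.46 CPM in control body columns. GGKF01072092.1 was named after its values were seen. The most negative log2 fold changes among members with at least 1 CPM in either group were those of GGKF01068469.1 and GGKF01024846.1. GGKF01068469.1 had 16.6, 4.47, 6.76 and 19.2 CPM in RNAi body columns, against 9.07, 28.1 and 12.2 CPM in control body columns (log2 fold change -0.45, SE 0.43, edgeR BH adjusted p = 0.692). GGKF01024846.1 had 2.42, 0.606, 0.699 and 2.15 CPM in RNAi body columns, against 1.18, 3.40 and 1.51 CPM in control body columns (log2 fold change -0.41, SE 0.48, edgeR BH adjusted p = 0.764). In both, RNAi body columns 1 and 4 were high, 2 and 3 were low, and control body column 3 was the highest of all. The spread between body columns was wide for the members as a whole, with a median coefficient of variation of 70.9% in RNAi and 59.2% in control body columns, against 10.7% in RNAi and 12.3% in control body columns over the 12172 transcripts, whose levels in these libraries were far higher.

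Some members were not detected in RNAi body columns at all. GGKF01016113.1, GGKF01044733.1 and GGKF01063178.1 were at 0 in all 4 RNAi body columns, and they were named after their values were seen. GGKF01016113.1 had 47.0, 71.8, 91.8 and 105.9 CPM in RNAi heads, against 102.9, 92.2, 97.7 and 101 CPM in control heads, and 0, 0.199 and 0 CPM in control body columns. GGKF01044733.1 had 22.8, 25.02, 20.3 and 23.2 CPM in RNAi heads, against 23.7, 20.8, 23.1 and 19.5 CPM in control heads, and was at 0 in all 7 body columns. Its RNAi and control heads overlapped, and no body column library held a count of it. At 3 counts or fewer in every library were 4 members in RNAi and 20 in control body columns. The rule favoured low control body columns, and the limit had to hold in 4 RNAi but only 3 control libraries. This difference was thus fixed in part by the choice.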

How the data were processed

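RNA-seq values of 15 libraries were used, and the title of each gave its treatment, tissue and replicate number. Libraries were prepared from messenger RNA by a strand-specific Illumina protocol, per the labels' protocols. The deposited values are expected counts made by the authors, which estimate the reads of each assembled transcript, and 74.2% of the nonzero values were not whole. The submitters' processing notes name Salmon (its version is not given in the sources used here) and DESeq2 1.26.0 with no role for either, and the transcriptome reference is not given in the sources used here. Programs of this kind divide reads among similar contigs, so values of near-identical contigs are uncertain. None of the contig IDs matched a table of 28925 RefSeq genes (0 matched).

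CPM were computed on the column totals, 16020872 to 22554240 counts. For tests, expected counts were rounded, which changed a total by at most 145 counts, and filterByExpr kept 31142 transcripts with 99.7% to 99.8% of the counts of each library, including all 94 members. Differences were tested in 1 model of the 15 libraries with a mean per group, by the quasi-likelihood test of edgeR 4.0.16 (R 4.3.3) with TMM factors, and p-values were adjusted over all tested transcripts (Benjamini-Hochberg, threshold 0.05). The script was tested on simulated data. Where every library of a group held 3 counts or fewer, folds are lower bounds against 3 counts per library, which covers counting error only. DESeq2 1.42.0, other scaling factors, no filter, a replicate block, other limits of the rule and each library left out were alternatives. Members named by ID were the most abundant, the most head-restricted, those beside each limit, those with the largest rise and fall in body columns among members of at least 1 CPM in 1 of the groups, those with the smallest and largest spread in RNAi heads, and those with the lowest p for the difference between tissues, and other named ones are marked as chosen after their values were seen. The members, lists and tests were chosen with earlier results of these data known.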

Additional observations from a re-analysis of the deposited data

Results flagged for a closer look

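In 3 of 56 groups of 4 libraries examined among the named members, 1 library stood apart from the other 3 by Dixon's criterion, which chance alone gives in about 1 group of 20. GGKF01026236.1 had 499 CPM in RNAi head 1, below the other RNAi heads. GGKF01009600.1 had 0.7104 CPM in RNAi body column 1, where the other RNAi body columns were at 0, and 25.8 CPM in control head 4, above the other control heads. With 3 libraries tied at 0, any value above 0 in the remaining one meets the criterion. The flag in RNAi body columns was therefore fixed, and the chance rate does not hold for such a group.

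The RNAi effect differed between head and body column for 4 members by the edgeR interaction term with BH adjustment. They are the 4 members called between body columns, and since the rule used 3 of the 4 groups and held the head effect near 0, this is not a separate result. The head effect minus the body column effect was -1.18 on the log2 scale for GGKF01019275.1 and -2.07 for GGKF01044091.1. The fitted values for GGKF01046104.1 (-12.00) and GGKF01053660.1 (-4.16) depend on the prior count, since their control body columns held at most 3 counts each, and they are not bounds.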

How the results depend on the processing

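The number of members was 94 under the limits used, and under other limits it was 136 at 8-fold, 69 at 32-fold, 75 with a narrower window from 0.8, 133 with a window of 0.5 to 2, 80 at 10 CPM and 98 with TMM factors (88 shared). With 1 library left out it was 88 to 100 (85 to 91 shared). The count of members called higher in RNAi heads than in RNAi body columns was 90 to 92 under all alternatives run. The count called between RNAi and control heads was also 0 under these alternatives, but the rule largely fixed it, so it says nothing of stability.

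The members called between RNAi and control body columns numbered 4. There were 28 with DESeq2, which gave an adjusted p for 92 members, 2 with library size alone, and 1 in a fit of the body columns alone, where 54 members passed the filter. With 1 library left out there were 2 to 11, with 2 without control body column 2 or 3 and 11 without RNAi body column 2. Those called for the difference between tissues numbered 4, 20 with DESeq2 and 1 to 7 with 1 library left out. There was 1 without control head 1, control body column 4, RNAi head 3 or RNAi body column 3, there were 2 without control head 3 or 4, control body column 2 or 3, RNAi head 2 or RNAi body column 4, and 7 without RNAi body column 2. Over all transcripts the difference between tissues was called for 488 of 31142 in edgeR and for 1805 of 30386 with DESeq2. With 1 library left out it was called for 313 to 444 transcripts. The fit of RNAi body columns 1 and 2 alone called 3 members between body columns, 1 higher and 2 lower. The replicate block called 0 members in both comparisons. Correlations of deviations between libraries of the same number lay between -0.036 and 0.040, and those of different numbers between -0.055 and 0.046. These values gave no clear sign of an effect shared by libraries of a number. They cannot show whether such libraries were handled together, so the block fit stands as an alternative in which no call was kept. The causes of these changes were not tested, except that fewer transcripts or libraries entered some fits.

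The summed level in RNAi over control body columns was 1.31, 2.70 for members of at least 32-fold, 1.05 to 1.70 with 1 library left out, 1.23 without GGKF01046104.1 and 0.921 with RNAi body columns 1 and 2 alone. The value at 32-fold is raised by the limit itself, which favours low control body columns. The median ratio was 1.51, 1.256 to 1.66 with 1 library left out. Over all transcripts the calls between body columns numbered 640 in edgeR, 2500 with DESeq2, 143 with library size alone, 274 without a filter, 101 with the replicate block, 100 in the fit of body columns alone and 103 without control body column 3. Between RNAi and control heads, TMM gave 824 higher and 657 lower calls, and library totals alone gave 268 higher and 840 lower ones. Low counts limit the body column values, since most members had under 2 CPM there.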
